A study of Sus scrofa and Rattus norvegicus with 8 samples.

Results

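A set of 9 complement genes that fat is known to make were followed in the upper layer of pig backfat, namely CFD, C3, CFB, C1R, C1S, C2, C7, SERPING1 and CD59. They were chosen by name, and the Ensembl gene IDs paired with those symbols in a pig gene name table were looked up among the 25880 IDs of the pig expression table. A value was found for 6 of the 9, which were CFD (ENSSSCG00000013418), C3 (ENSSSCG00000013551), CFB (ENSSSCG00000024914), C2 (ENSSSCG00000001422), C7 (ENSSSCG00000016859) and SERPING1 (ENSSSCG00000013181). The IDs paired with C1R and C1S were not among those with a value, and CD59 was not paired with any ID, so these 3 genes were not analysed here. All 6 genes with a value were over 0.1 TPM in each of the 6 libraries, and no other gene had identical values.

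The 6 libraries came from 1 group of Bama pigs, all of them adult females aged 2 years, with no treatment named in the labels. The tissue was subcutaneous fat of the back, which was taken after a night without feed. Total RNA was depleted of ribosomal RNA, made into stranded libraries and sequenced on 1 platform, and gene-level abundance was deposited as TPM, the abundance of a transcript per unit of its length relative to the whole library. The labels number the libraries as replicates 1 to 6. The study's methods describe this fat layer, for its chromatin maps, as collected from 6 pigs, and the 6 columns of the table carry different names. The spread between libraries is thus read as that between pigs, although the labels themselves do not say so.

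Complement is a cascade of plasma proteins that marks particles for removal and, at its end, punches pores in membranes. The classical pathway starts with C1q and its proteases C1r and C1s, which cut C4 and C2, while the alternative pathway runs on C3, factor B and factor D. Most complement protein in blood comes from the liver, but factor D, also called adipsin, is secreted mainly by adipocytes, and fat also makes C3 and factor B.

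The label of the tissue was checked against its markers. The summed level of 7 of 8 listed adipocyte markers lay between 19019 and 36534 rescaled TPM, and the most abundant was FABP4, the fatty acid binding protein of adipocytes. The named nuclear genes, on which the rescaling rests, held 24.1% to 26.3% of all TPM in replicates 1, 2, 3 and 6, but 3.34% and 4.73% in replicates 4 and 5. In these 2 libraries the IDs without a symbol took 96.5% and 95.0% of the TPM, against 54.7% to 62.9% in the other 4. The levels of the members are therefore given as deposited and after each library's 14844 named nuclear genes were scaled to sum to 1e+06, called rescaled TPM, and other genes mostly in rescaled TPM alone. That step multiplied a gene by 3.80 to 4.15 in the other 4 libraries, by 29.9 in replicate 4 and by 21.1 in replicate 5.

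Where the genes lie is given on the pig assembly Sscrofa11.1 with RefSeq annotation. CFD (chr2:77509792-77511988, minus strand) is a compact gene of 5 exons with a transcript of 1115 bases, and C3 lies on the same chromosome (chr2:72431470-72471622, plus strand) with 40 exons. SERPING1, at chr2:13324160-13338826 on the minus strand, has 8 exons. C7 spans 19 exons at chr16:25846860-25902707 on the plus strand. C2 (chr7:24020590-24034042, 18 exons) and CFB (chr7:24034077-24040523, 19 exons) are paralogs that lie head to tail on the plus strand. Among the genes without a value, CD59 lies at chr2:27186587-27207303 on the plus strand, C1R at chr5:63644097-63655149 on the plus strand and C1S at chr5:63670309-63681466 on the minus strand, so that 15159 bases separate C1R from C1S. In all, 3 stretches of sequence are printed from this assembly. The first is the whole of the 34 bases between the end of C2 and the start of CFB, chr7:24034043-24034076 on the plus strand, shown because the 2 genes are neighbours whose levels differed.
C2 to CFB: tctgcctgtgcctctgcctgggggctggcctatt
The other sequences are the 250 bases before the annotated start of CFD (chr2:77511989-77512238) and of SERPING1 (chr2:13338827-13339076), both on the minus strand, shown because these were the 2 most abundant genes of the set and differed in how steady they were between libraries. Capitals mark matches, on either strand, to the C/EBP site TTGCNNAA in CFD, and to the CCAAT box CCAAT and the STAT-binding GAS element TTCNNNGAA in SERPING1, where the 2 matches overlap.
CFD: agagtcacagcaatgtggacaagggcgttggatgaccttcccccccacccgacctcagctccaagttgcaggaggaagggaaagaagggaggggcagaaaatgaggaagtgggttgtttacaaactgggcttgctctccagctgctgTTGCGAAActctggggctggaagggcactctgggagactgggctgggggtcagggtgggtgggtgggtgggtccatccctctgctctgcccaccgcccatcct
SERPING1: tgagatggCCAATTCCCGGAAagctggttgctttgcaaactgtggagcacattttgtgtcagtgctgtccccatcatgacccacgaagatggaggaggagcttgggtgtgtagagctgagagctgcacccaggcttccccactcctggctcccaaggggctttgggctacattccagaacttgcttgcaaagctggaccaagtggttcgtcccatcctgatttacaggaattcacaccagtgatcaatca
Counted back from the start of the gene, the match in CFD begins at base -103 and those in SERPING1 at -242 for CCAAT and -238 for GAS. Among 19556 promoter windows of the same length, 8.22% held the C/EBP letters, 31.9% held CCAAT and 6.12% held the GAS letters, so each match is a description and names no factor.

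CFD and SERPING1 were the abundant genes of the set, C2, C3 and C7 were an order lower, and CFB was the lowest in mean level. As deposited, SERPING1 averaged 165 ± 122 TPM (SD, n = 6), CFD 76.5 ± 48.4, C2 8.47 ± 6.29, C3 7.38 ± 7.46, C7 4.79 ± 4.51 and CFB 2.91 ± 1.76. After rescaling the mean levels were 711 ± 386 rescaled TPM for SERPING1, 434 ± 75.5 for CFD, 41.8 ± 14.2 for C2, 41.0 ± 25.4 for C3, 24.3 ± 13.3 for C7 and 17.2 ± 3.96 for CFB. The order of the 6 means was the same on both scales. C2 and C3 did not differ beyond their spread, since C3 was the higher of the pair in 4 of 6 libraries although its mean was the lower. C3 and C7 likewise held 1 order in 4 of 6 libraries, as did CFB and C7 and also CFD and SERPING1.

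**Figure D1:**
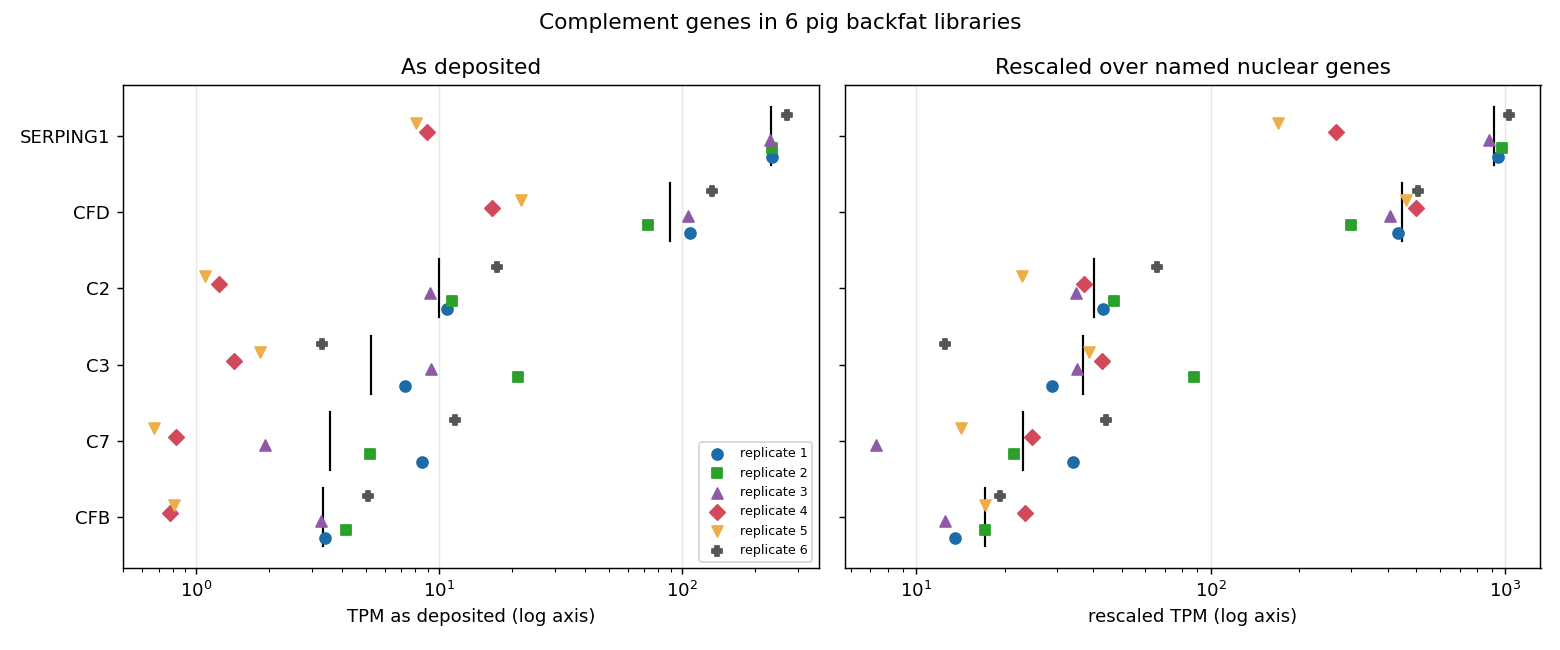
Levels of the 6 complement genes with a value, as deposited TPM (left) and rescaled TPM (right), both on log axes, with 1 marker per library and a black bar at the median. Replicates 4 and 5 are the lowest libraries of every gene as deposited, whereas after rescaling both stay below the other 4 only in SERPING1.

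CFD encodes factor D, the serine protease that cuts factor B once it is bound to C3b and thereby forms the alternative pathway convertase. As deposited it ranged from 16.6 TPM to 134 TPM, with a median of 89.4 TPM. The lowest libraries were replicates 4 and 5. In rescaled TPM the lowest was 301 in replicate 2, the median 447 and the highest 507 in replicate 6, which left a 1.69-fold range. Replicates 4 and 5 then lay among the others, at 496 and 461 rescaled TPM. Within its own library CFD ranked between 225 and 476 from the top of the 14844 named nuclear genes, so that it was at the 96.8 percentile or above in every library.

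SERPING1 encodes the C1 inhibitor, a serpin that traps C1r and C1s and also restrains the kinin-forming contact system. It was the most abundant member in replicates 1, 2, 3 and 6, where it stood between 882 and 1030 rescaled TPM and ranked between 86 and 117. In replicates 4 and 5 its level was 266 and 170 rescaled TPM, its rank 502 and 865, and CFD exceeded it. The 2 sets of libraries did not overlap, and the mean of replicates 4 and 5 was 0.228 times the mean of the other 4. That difference, -2.13 on the log2 scale, stood beside a median shift of -0.44 over all 8853 genes used for such comparisons. SERPING1 was also below the other 4 libraries in both replicates after median-centring (-1.52, with a median of 0.18 over all genes) and after quantile normalization (-1.99, with 0.02).

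Whether the other members did the same was counted. As deposited, replicates 4 and 5 were both below the other 4 libraries in 6 of 6 members, as were 99.2% of the 8853 named nuclear genes with a mean of at least 10 rescaled TPM that were above 0 in every library. After rescaling this held for 1 of 6 members, SERPING1, against 48.6% of those genes, and no member was above in both replicates, against 12.3% of the genes. CFD and CFB were above in both replicates after median-centring, and CFB alone after quantile normalization, so their order between libraries depended on the scale. Which feature of these 2 libraries goes with the low SERPING1 was not tested.

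**Figure D2:**
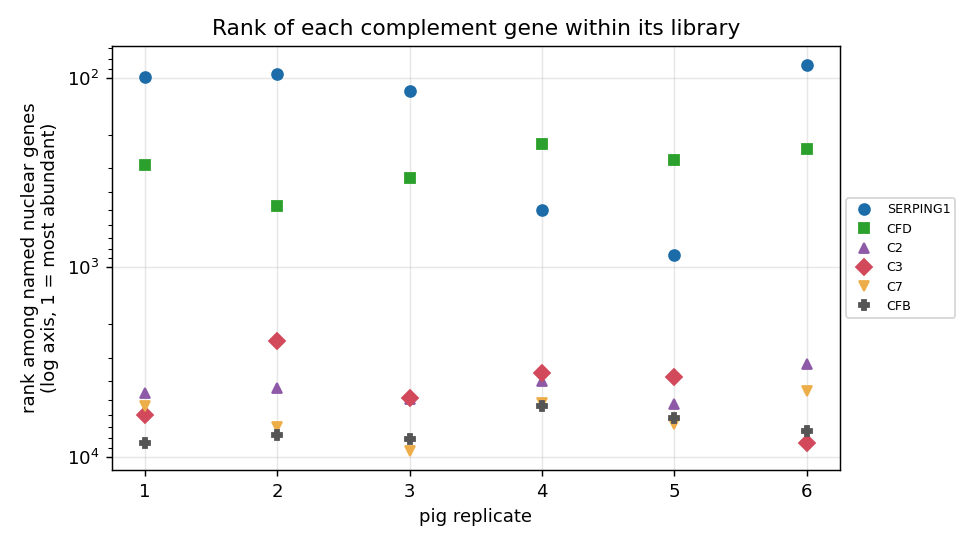
Rank of each complement gene among 14844 named nuclear genes of its own library, on a log axis with the most abundant gene at the top; each column is 1 library. CFD stays between rank 225 and 476, while SERPING1 goes from 86 in replicate 6 to 865 in replicate 5.

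C3 is the protein at which all complement pathways meet, and its fragment C3b binds to surfaces. It had the widest relative spread of the 6 genes. Its rescaled level was lowest in replicate 6 (12.5 TPM), had a median of 36.9 TPM and was highest in replicate 2 (88.1 TPM), a 7.05-fold range, and its rank in the library went from 8524 to 2449. As deposited it ranged from 1.43 TPM to 21.2 TPM with a median of 5.27 TPM. Replicate 2 stood well above the rest and replicate 6 well below on the rescaled scale, with the other 4 libraries between 29.0 and 42.7 TPM. Replicate 2 carried the mean as deposited, which was 4.60 TPM without it.

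CFB encodes factor B, whose cut form supplies the active protease of the alternative pathway convertase. It had a rescaled median of 17.1 TPM, from 12.5 TPM in replicate 3 to 23.4 TPM in replicate 4, a 1.87-fold range. The deposited values ran from 0.782 TPM to 5.09 TPM with a median of 3.33 TPM. Like CFD, it was narrow in range after rescaling and wide before it.

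C2 is the classical pathway counterpart of factor B. It ranged between 22.9 rescaled TPM in replicate 5 and 65.5 in replicate 6, with a median of 40.1, and between 1.09 TPM and 17.3 TPM as deposited. Replicates 1 to 4 lay close together, between 35.0 and 46.8 rescaled TPM. C7, which anchors the assembling membrane attack complex in the target membrane, ranged from 7.32 rescaled TPM in replicate 3 to 44.2 in replicate 6 with a median of 23.1. Its deposited level was 0.673 TPM at the lowest and 11.6 TPM at the highest, so it was highest in replicate 6 on both scales. Bulk tissue was measured, so that fewer cells of a type and less RNA per cell cannot be told apart for any of these genes.

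The question of how steady the members were between libraries was put to the coefficient of variation (CV, SD over mean) of the rescaled levels. CFD had a CV of 0.174, which stood at the 22.1 percentile of the 8853 genes, and CFB one of 0.231 at the 37.5 percentile. The median over all those genes was 0.282. C2 (0.341, percentile 62.2), SERPING1 (0.543, percentile 89.4), C7 (0.548, percentile 89.8) and C3 (0.618, percentile 94.5) were all above it. With no filter on the mean, C2 stood at the 49.8 percentile, just under the median of 0.342, while the others kept their side. The order of the CVs depended on the scale. After median-centring C2 had the lowest CV (0.232), followed by CFD (0.347), CFB (0.421) and SERPING1 (0.436). After quantile normalization CFD was at 0.201, C2 at 0.234 and CFB at 0.401. In rescaled TPM the median CV over the 6 members was 0.442, and it fell to 0.239 when replicates 4 and 5 were left out together. The members also varied against each other. The SD over libraries of the log2 ratio of 2 members, which no scaling by 1 factor per library can change, had a median of 0.979 over the 15 pairs, beside 0.579 over 39183378 pairs of the genes used. The steadiest pair was CFD and CFB at 0.345, and the least steady was C3 and SERPING1 at 1.59.

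Together the 6 genes held 0.127% ± 0.0375 (SD, n = 6) of the named nuclear TPM, from 0.0723% in replicate 5 to 0.168% in replicate 6. CFD and SERPING1 supplied 85.6% to 93.5% of that sum in each library. Their parts differed between libraries, since CFD made up 63.7% of the sum in replicate 5 and 20.8% in replicate 2. SERPING1 made up 23.5% and 67.2% in the same 2 libraries.

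Pathway partners were then compared within each library, where any scaling by 1 factor per library cancels. Differences between libraries that act unequally on genes, such as those in cell composition, do not cancel. Of 9 pairs fixed by role, 4 had both values. The protease CFD exceeded its substrate CFB in 6 of 6 libraries, by a log2 ratio of 4.67 ± 0.34 (SD, n = 6), which is between 17.6-fold in replicate 2 and 32.4-fold in replicate 3. The two-sided exact sign-flip permutation test gave p = 0.03125, the smallest that 6 libraries allow, and 0.0417 after Benjamini-Hochberg adjustment over the 4 pairs. Any 2 genes that keep 1 order in 6 of 6 libraries get that unadjusted p. The test thus speaks to a kept order and shows nothing particular to pathway partners. CFD also exceeded C3 in 6 of 6 libraries, with a log2 ratio of 3.61 ± 1.14 and an adjusted p of 0.0417 in the exact permutation test. That ratio was uneven, from 3.41-fold in replicate 2 to 40.6-fold in replicate 6.

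C3 and CFB together form the alternative pathway convertase. C3 was higher in 5 of 6 libraries, with a log2 ratio of 1.06 ± 0.98, and lower in replicate 6, where it stood at 0.647 times CFB. The exact permutation test gave an adjusted p of 0.0625, so a difference was not shown. CFB was below its paralog C2 in 6 of 6 libraries, with a log2 ratio of -1.24 ± 0.56 and an adjusted p of 0.0417 in the exact permutation test. The ratio of CFB to C2 was 0.295 in replicate 6 and came nearest to equality in replicate 5, at 0.745, with replicate 4 next. These 2 genes lie 34 bases apart, as printed above, and yet CFB was the lower of the pair in each library.

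**Figure D3:**
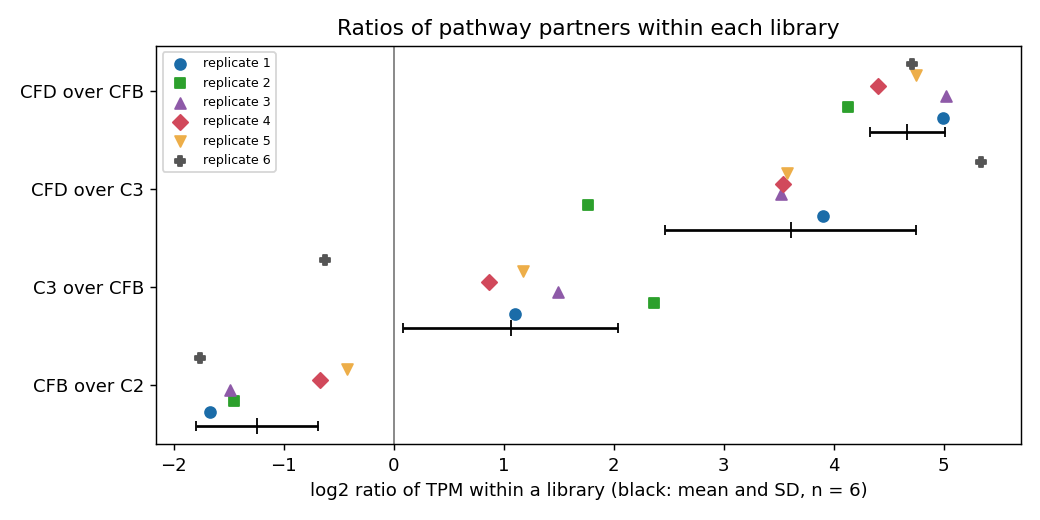
The log2 ratio of TPM within each library for the 4 pairs of pathway partners with both values, 1 marker per library, with the mean and SD (n = 6) in black under the markers and a grey line at equality. CFD lies to the right of the line over both CFB and C3 in 6 of 6 libraries, CFB lies to the left over C2 in 6 of 6, and C3 over CFB crosses the line in replicate 6.

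Genes whose pattern over the 6 libraries was most like that of a member were found by the SD of the log2 ratio, as a description with no test. The closest to CFD were NTMT1 (0.057), GFER (0.072) and SQSTM1 (0.077). The closest to C3 were ALDH1A2, an enzyme of retinoic acid synthesis, at 0.277, VTN at 0.338 and SPP1, which encodes osteopontin, at 0.425. C3 thus had no close companion by the standard of CFD, and neither had C7, given below. The closest to SERPING1 was ARID1B (0.035), to CFB it was STT3B (0.120), to C2 ABCA6 (0.121) and to C7 ssc-mir-421 (0.319). With genes averaging at least 1 rescaled TPM, 5 of 6 members kept their closest gene. That of C2 became KRT23 (0.120), and for C3 IL22RA2 (0.325) came before VTN.

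VTN, which encodes the terminal pathway inhibitor vitronectin, was named above for its likeness to C3 in these same libraries. That VTN followed C3 from library to library is therefore part of how it was chosen. C3 was higher than VTN in 6 of 6 libraries, by 1.11-fold to 2.26-fold, and both genes were lowest in replicate 6 and highest in replicate 2. The summed level of 7 of 8 listed hepatocyte markers moved with C3 in part. It was lowest in replicate 6 (206 rescaled TPM) and next lowest in replicate 1 (327), as C3 was, and 573, 1272, 1437 and 1673 in replicates 3, 2, 4 and 5. The most abundant of them was ALB, serum albumin, with 47.6 rescaled TPM in replicate 6, 85.7 in replicate 1, 794 in replicate 2 and 1091 in replicate 5. APOA2 was listed at 0 in replicate 6 and at 0.959 to 29.2 rescaled TPM in the others, and FGA was not analysed here. The order was not shared throughout, as replicate 2 was highest for C3 and replicate 5 for the hepatocyte sum. Each of the 7 markers was lowest in replicate 6, but only 1 of them was highest in replicate 2. The share of all genes that did either was not counted, so these counts are not particular to hepatocyte markers. Unlike C3, APOA1 was higher in replicate 1 (207 rescaled TPM) than in replicates 3 (162) and 4 (154). TTR was likewise at 10.8 in replicate 1 against 9.17 and 9.94. The part of these genes in the C3 values was not tested.

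**Figure D4:**
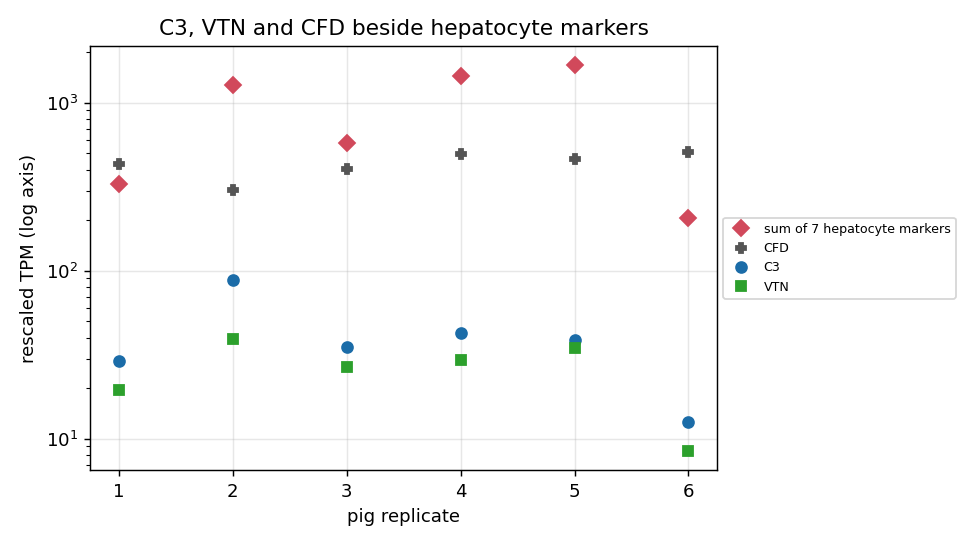
Rescaled TPM of C3, VTN, CFD and the sum of 7 hepatocyte markers in each of the 6 libraries, on a log axis, 1 marker per gene or sum. VTN was chosen for its likeness to C3 in these libraries. Replicate 6 is lowest for C3 (12.5), VTN (8.45) and the hepatocyte sum (206), but highest for CFD (507).

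Lists for the other cell types of fat are given here because complement genes are also made outside adipocytes. The sum of each list is given beside the count of its genes that were lower in both replicates 4 and 5 than in the other 4 libraries, as SERPING1 was and as 48.6% of all genes used were. The 8 stromal markers, led by COL3A1, a fibrillar collagen, summed to between 9668 rescaled TPM in replicate 4 and 28421 in replicate 1. Of these, 5 of 8 were lower in both replicates, while COL3A1 was at 4378 and 11359 there against 5892 to 12882 in the other 4. The 8 macrophage markers, led by the mannose receptor MRC1, summed to 435 in replicate 4, 251 in replicate 5 and between 536 and 656 in the other 4, and 5 of 8 were lower in both. Of the endothelial list 4 of 6 genes had a value, and their sum, most of it PECAM1, was 605 and 736 against 1034 to 1322. Here 3 of the 4 were lower in both replicates. The 4 smooth muscle markers summed to 451 and 436 against 530 to 898, with 2 of 4 lower in both. The most abundant of them, TAGLN, was at 347 and 269 in replicates 4 and 5 against 238 to 294 in the other 4. The neutrophil sum, led by S100A8, went the other way, at 99.6 and 292 in replicates 4 and 5 against 10.4 to 53.5. Of its genes 2 of 3 were higher in both replicates. The remaining gene, CSF3R (named after its values were seen), was at 1.19 and 2.61 there against 2.52 to 10.9 in the other 4. The part of these cells in the SERPING1 values was not tested. Lymphocyte markers, led by CD2, summed to between 17.4 and 39.4 rescaled TPM, and those of erythroid cells, led by HBB, to between 105 and 964. Markers of mesothelium, skeletal muscle and keratinocytes were near 0, with sums of at most 1.86, 11.0 and 1.60 rescaled TPM. UPK1B, TNNT3 and KRT1, 1 gene of each of these 3 lists, were listed at 0 in at least 1 library.

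Interferon and acute phase genes were listed because both programmes are known to raise complement transcripts. The sum of 10 of 12 interferon genes, led by IFIT1, was highest in replicate 2 at 1051 rescaled TPM and between 519.5 and 637 in the other 5 libraries. Of the 10 genes, 6 were highest there, but so were 4 of 4 endothelial markers with a value. The share of all genes highest in replicate 2 was not counted. The sum of 6 of 10 acute phase genes, led by LCN2, was also highest in replicate 2, at 139 rescaled TPM, and lowest in replicate 3 at 58.9. Only 2 of the 6, CRP and PTX3 (named after their values were seen), were themselves highest in replicate 2, and LCN2 was highest in replicate 6 at 37.3 against 31.7 in replicate 2. Replicate 2 was the library with the highest C3 and, in rescaled TPM but not as deposited, the lowest CFD. No other member was highest in replicate 2 on either scale. Whether these sums bear on C3 was not tested.

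The rest of the complement system was examined by a list of 46 further genes, of which 35 had a value and 21 averaged at least 1 TPM as deposited. The other 14 averaged under 1 TPM, and 2 of these were listed at 0 in at least 1 library. Of the recognition molecules, the 3 chains of C1q, which macrophages are known to make, averaged 109 ± 23.1 (C1QA), 76.7 ± 17.3 (C1QC) and 72.7 ± 37.7 (C1QB) rescaled TPM (SD, n = 6). They were thus of one order, although C1QB was at 34.0 and 25.6 in replicates 4 and 5 and between 63.0 and 114 in the other 4. The ratio of C1QA to C1QB reached 4.01 in replicate 5, against 1.01 at the lowest. Among lectin-type recognition genes, COLEC12 averaged 103.5 and FCN2, a ficolin, 91.9 rescaled TPM.

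C4A, the substrate of C1s beside C2, averaged 51.9 ± 29.1 rescaled TPM. MASP1, a protease of the lectin pathway, averaged 22.9 ± 22.3, from 5.86 in replicate 4 to 64.2 in replicate 6. SERPING1 exceeded C4A in 6 of 6 libraries, by 7.48-fold to 21.2-fold. Of the terminal proteins, C9, which forms the wall of the pore, averaged 33.4 rescaled TPM and C5 averaged 14.3, whereas C6, C8A, C8B and C8G were among the 14 genes under 1 TPM. The genes for the proteins on either side of C7 in the growing complex, C6 and the chains of C8, were thus the low ones of this group.

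Among the regulators, C4BPA, the alpha chain of the C4b-binding protein, was the highest complement gene examined. It averaged 1440 ± 404 rescaled TPM (SD, n = 6; 277 ± 205 TPM as deposited), from 1213 in replicate 5 to 2259 in replicate 6. It exceeded CFD in 6 of 6 libraries by 2.63-fold to 4.46-fold, and SERPING1 was between 0.140 and 0.791 times its level. Its partner chain C4BPB averaged 4.81 rescaled TPM. The longest RefSeq transcript of C4BPA has 716 bases in 6 exons. TPM is relative to transcript length, but the deposited TPM is listed by Ensembl ID, so the length behind it may differ from the RefSeq one. Whether the gene model is complete was not tested, so the high level of C4BPA depends on the model used for it. CLU, the inhibitor clusterin, averaged 227, VTN 26.3, CFI, the protease that degrades C3b, 11.4, and CPN1, a carboxypeptidase that trims anaphylatoxins, 4.87 rescaled TPM. Most of these regulators are secreted proteins. On the cell surface, the C3a receptor C3AR1 averaged 66.9, VSIG4, a C3b receptor of macrophages, 35.8, and CD93 36.8 rescaled TPM. The integrin chains of complement receptor 3 averaged 26.5 (ITGAM) and 20.6 (ITGB2), and the C1q-binding protein C1QBP, which is largely mitochondrial, averaged 169. Of the 21 genes, 9 were lower in both replicates 4 and 5 than in the other 4 libraries after rescaling and 2 were higher, against 48.6% and 12.3% of all genes used.

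**Figure D5:**
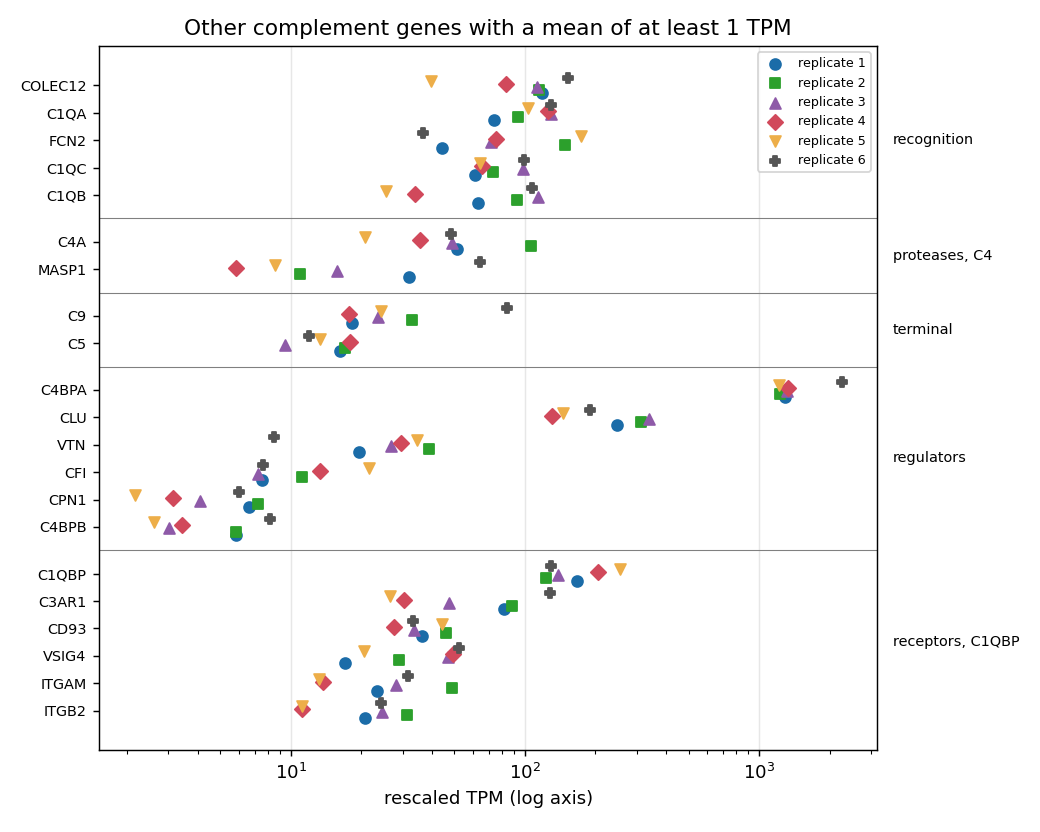
Rescaled TPM, on a log axis, of the 21 further complement genes that averaged 1 TPM or more before rescaling, grouped by role, with 1 marker per library. C4BPA is the highest, between 1213 and 2259, and 9 genes, among them C1QB and C3AR1, are lower in replicates 4 and 5 than in the other 4 libraries.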

How the data were processed

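The series holds 6 pig and 2 rat libraries; the rat table was not used here, as its IDs were not paired with symbols. The authors deposited gene-level TPM, estimated with Kallisto 0.43.0 on Sscrofa11.1 per the submitters' processing notes. Kallisto shares reads between similar transcripts by estimate, which bears on paralogs such as C2 and CFB. TPM keeps no read depth, so the depth per library is unknown and no counting interval is given. IDs were paired with symbols through a pig gene name table: 14857 of 25880 had one, of which 13 are mitochondrially encoded. Complement members and all lists were chosen with earlier results of these data known. From the deposited TPM, the named nuclear genes of each library were rescaled to 1e+06. Levels, ranks, CV and likeness (SD of log2 ratios, genes with a mean of at least 10 rescaled TPM) are descriptions. Log2 ratios used no pseudocount and an exact sign-flip permutation test over 6 libraries, with Benjamini-Hochberg adjustment over 4 pairs, since 5 of the 9 planned pairs involved C1R, C1S or CD59. Named were all members, the further complement genes averaging at least 1 TPM, the closest gene to each member (3 for CFD and C3), and of each marker list its sum, its most abundant gene and its genes listed at 0. Locations, sequences and motifs came from RefSeq on Sscrofa11.1. Alternatives were median-centring, quantile normalization, removal of mitochondrial and 50 ribosomal protein genes, a pseudocount of 1 TPM, lower filters and leaving out libraries. The steps were tested on simulated data. Python 3.11.15, numpy 2.4.6, pandas 2.3.3 and scipy 1.17.1 were used.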

Additional observations from a re-analysis of the deposited data

Results flagged for a closer look

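In 4 of 58 sets of 6 values examined, 1 library lay far from the others by Dixon's criterion, which chance alone meets in about 1 of 20 sets. C4A was 106 rescaled TPM in replicate 2, against 20.7 to 51.4 in the other libraries. C9 was 83.5 rescaled TPM in replicate 6, and 22.0 TPM as deposited. C4BPA was 2259 rescaled TPM in replicate 6, against 1213 to 1334 in the other libraries. None of the 6 members with a value was among the 4.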

How the results depend on the processing

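The median CV of the members, 0.442 after rescaling, was 0.741 as deposited, 0.239 without replicates 4 and 5, and between 0.324 and 0.502 when 1 replicate was left out. The summed share was 0.0265% with all genes as the total. Replicates 4 and 5 were both below the other 4 in 6 members as deposited, and both above in 2 after median-centring and 1 after quantile normalization, scales added after seeing the data. Rescaling moved the mean of 6 of 6 members by more than 1 SD, by construction, and the other alternatives, leaving out 1 replicate included, moved none of them by more than that. The 4 log2 ratios kept their direction and their side of the threshold with a pseudocount of 1 TPM and after quantile normalization, and with 5 libraries the exact test cannot go below 0.0625. Without a filter on the mean, the CV percentiles were lower for 6 of 6 members, and that of C2 went from 62.2 to 49.8. No paired analysis was possible because pig and rat, which share replicate numbers, were not compared and the test contrasts genes within a library. Depth is unknown, which limits what can be said of the genes under 1 TPM.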
